A study of Mus musculus with 2 samples.

Results

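The Mir204/Mir211 and Mir34/Mir449 families, 8 miRNA genes known from the choroid plexus and from ciliated cells, were followed in the left cerebral cortex of adult mice. They are 8 of 2202 annotated miRNA genes and were chosen by gene name: Mir204 and Mir211 form the first family, and Mir34a, Mir34b, Mir34c, Mir449a, Mir449b and Mir449c the second. The series sequenced short RNA from 2 male mice aged 2 months of the strain B6CASTF1/J, a first-generation cross of C57BL/6J and CAST/EiJ, with no treatment named in the labels. Library 1 is animal male 3 and library 2 is animal male 4. The labels number the animals separately but give both 1 donor identifier, so nothing else shows that they are different mice, and differences between the libraries could be technical. The 2 libraries form 1 group, so no conditions could be compared.

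MicroRNAs (miRNAs) are short RNAs cut from hairpin precursors, and they lower the output of mRNAs that match their seed, the bases near the 5′ end of the mature strand. miR-204 is abundant in the choroid plexus, the epithelium that makes cerebrospinal fluid, and in the retinal pigment epithelium. Its close relative miR-211 is best known from pigment cells. The Mir34/Mir449 family promotes the formation of motile cilia in multiciliated cells, among them the ependymal cells that line the brain ventricles. miR-34a is also induced by p53 and is widely expressed, including in neurons. The tissue was dissected cortex without sorting, so the cells that supplied the reads are not known. In such bulk tissue, fewer cells of a type and less RNA per cell cannot be told apart.

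The mature 5p strands are shown because the families are defined by them. Capitals mark the seed, bases 2 to 8, and the sequences are from RefSeq (GRCm38.p6), where 7 of the 8 genes had a hairpin and 6 a 5p strand.
mmu-miR-204-5p: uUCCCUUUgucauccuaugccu
mmu-miR-211-5p: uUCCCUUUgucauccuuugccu
mmu-miR-34a-5p: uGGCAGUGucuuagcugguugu
mmu-miR-34b-5p: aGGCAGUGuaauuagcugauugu
mmu-miR-449a-5p: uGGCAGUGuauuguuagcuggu
mmu-miR-449c-5p: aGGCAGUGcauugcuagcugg

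The 2 families have different seeds. miR-204-5p and miR-211-5p were identical at 21 of 22 bases and differed by A17U, counted from the 5′ end with the base of miR-204-5p first. The Mir34/Mir449 strands shared the seed and differed at bases after it, and some pairs also at base 1 before it. Strands were compared position by position from the 5′ end without gaps. An inserted base therefore shifts all later ones, and the matches below can understate the likeness. miR-34a-5p and miR-449a-5p matched at 15 of 22 bases, miR-449a-5p and miR-449c-5p at 18 of 21, and miR-34a-5p and miR-34b-5p at 11 of 22. Among 1738 mature strands in the RefSeq table, 1 strand of another gene had the Mir204/Mir211 seed, mmu-miR-7670-3p, and none outside the family had the Mir34/Mir449 seed. Mir7670 had no read in either library.

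The Mir34c hairpin is shown beside that of its neighbour Mir34b, with the same 7 letters of the seed in capitals, because these neighbours differed in count.
Mir34b hairpin: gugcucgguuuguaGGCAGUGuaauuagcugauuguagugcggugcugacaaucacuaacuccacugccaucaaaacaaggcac
Mir34c hairpin: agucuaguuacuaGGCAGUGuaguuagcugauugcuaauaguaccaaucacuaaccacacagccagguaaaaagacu

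These sequences bear on the counts, because a read that maps to several places is given to no gene in this table layout. The longest stretch that any of the 7 hairpins shared with another hairpin of the table was 17 bases, between Mir204 and Mir211. Mir34b and Mir34c shared at most 11 bases, and Mir449a at most 14 bases, with Mir679. For Mir34b and Mir34c that length understates the likeness. In the part of the printed hairpins that holds the capitals, 1 differing base lies between stretches that both share. Whether reads of either gene were counted for the other was not tested. Each of the 13 mature strands in the table for these genes had an exact copy in 1 annotated gene only, its own, among the transcripts of GENCODE M21. No 5p strand of Mir34c and no strand of Mir449b was in the table, so these were not checked. Exact copies also do not show where a read with a sequencing error was counted. miR-204-5p and miR-211-5p differ by 1 base, and such exchange between them was not tested. The rest of the genome was not searched.

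Library 1 held 3827158 and library 2 held 4553291 reads on the sense strand of miRNA genes, 33.7% and 35.1% of all reads. Reads mapped to several places were 41.7% and 41.1%. Levels are given as counts per 1000000 of the sense-strand miRNA reads (CPM). The mature strands have nearly the same length, 21 to 23 bases for the 5p strands, so CPM were compared between genes without a length correction. Counts are of sequenced reads, and how efficiently each strand was captured and amplified was not measured, so ratios between genes are ratios of reads. Counts are per hairpin, and the 5p and 3p strands were not separated.

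Together the 8 genes took 0.460% ± 0.0694 (SD, n = 2) of all sense-strand reads in miRNA genes. Library 1 gave 0.411% (95% Wilson interval 0.404 to 0.417%) and library 2 gave 0.509% (0.502 to 0.515%). Reads carried no molecular identifiers, so the intervals and limits given here cover counting error alone. Mir34a alone supplied 82.4% of these reads in library 1 and 85.8% in library 2. Without Mir34a, the other 7 genes held 0.0721% and 0.0724%. Of the 8 genes, 5 were detected, meaning at least 10 reads in each library, beside 406 of all 2202. Mir211 had reads in both libraries but fewer than 10 in library 2, and Mir449b and Mir449c had no read.

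**Figure D1:**
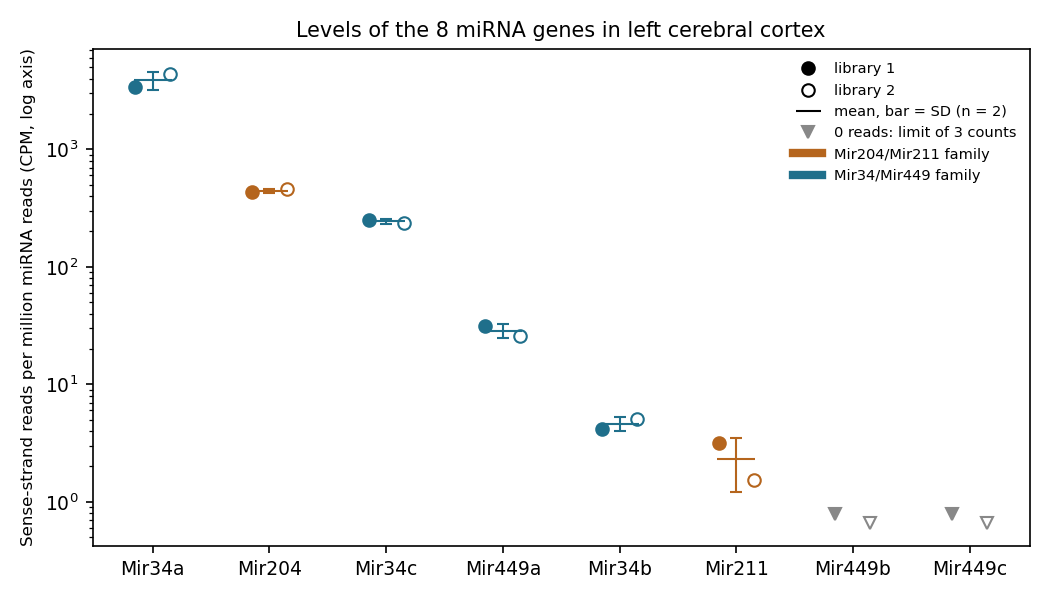
Sense-strand CPM (log axis) of each of the 8 genes in library 1 (filled) and library 2 (open), with the mean and SD of n = 2, ordered by mean. Mir34a lies at 3385 and 4363 CPM, Mir204 and Mir34c follow, and the grey triangles of Mir449b and Mir449c mark the limit that 0 reads allow, 3 counts of the library total.

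Mir34a was the highest of the 8. This gene (ENSMUSG00000065493.1; mm10, chromosome 4, 150068454 to 150068555, plus strand) has no host gene around it, and the last 17 bases of its hairpin overlap an exon of Gm37795, an unconfirmed transcript on the same strand. Mir34a had 12956 reads in library 1 and 19866 reads in library 2, or 3385 and 4363 CPM. Its mean was 3874 ± 691 CPM (SD, n = 2), rank 46 among the 406 detected genes. The genes next to it in that order were Mir98 above, at 3922 ± 671 CPM, and Mir378a below, at 3649 ± 118 CPM. The spread of Mir34a between the libraries, 17.8% of its mean, was larger than its distance to either neighbour.

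Mir204 followed, 8.74-fold below Mir34a in the mean. This gene (ENSMUSG00000065507.3; chromosome 19, 22750605 to 22750672, plus strand) sits within an intron of Trpm3, which encodes a cation channel and is transcribed from the same strand. Mir204 had 1644 reads in library 1 and 2083 reads in library 2, or 430 and 457 CPM. Its mean was 444 ± 19.7 CPM (SD, n = 2), rank 132. Gm23450 at 452 ± 3.89 CPM and Mirlet7a-1 at 438 ± 9.59 CPM stood next to it, both within its spread.

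Mir211, the other gene of that family (ENSMUSG00000065585.1; chromosome 7, 64205806 to 64205911, plus strand), sits within an intron of Trpm1, a related channel gene. Mir211 had 12 reads in library 1 and 7 reads in library 2, or 3.14 CPM (95% Wilson interval 1.79 to 5.48) and 1.54 CPM (0.745 to 3.17). The mean of 2.34 ± 1.13 CPM made it the lowest gene of the 8 with any read. Within each library Mir204 exceeded Mir211 by 137-fold in library 1 (exact 95% interval 78.2 to 266) and by 298-fold in library 2 (144 to 741). On the log2 scale with 1 CPM added, Mir204 lay above Mir211 by 7.10 ± 0.56 (SD, n = 2). Thus Mir204 supplied 99.3% and 99.7% of the reads of the Mir204/Mir211 family, which held 0.0433% of library 1 and 0.0459% of library 2.

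Mir34c and Mir34b lie together on the minus strand of chromosome 9, within 612 bases (51103034 to 51103645) and with 451 bases between the hairpins. Mir34b comes first in the direction of transcription. Both lie opposite an intron of Btg4, a gene of the plus strand, and no gene on their own strand spans them. Mir34c (ENSMUSG00000065587.1; 51103034 to 51103110) had 966 reads in library 1 and 1065 reads in library 2, or 252 and 234 CPM. Its mean was 243 ± 13.1 CPM (SD, n = 2), rank 158, between Mir664 at 250 ± 19.7 CPM and Mir145a at 238 ± 23.4 CPM. Mir34b (ENSMUSG00000065492.1; 51103562 to 51103645) had 16 and 23 reads, or 4.18 and 5.05 CPM. With a mean of 4.62 ± 0.616 CPM it took rank 373, next to Mir6971 and Mir544, whose means differed from it by 0.0681 and 0.0321 CPM.

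Thus the neighbours differed in both libraries, with Mir34c 60.4-fold above Mir34b in library 1 (exact 95% interval 37.0 to 106) and 46.3-fold in library 2 (30.7 to 73.4). The log2 ratio with 1 CPM added was 5.45 ± 0.24 (SD, n = 2), and 5.72 with nothing added. Mir34b and Mir34c also resemble each other on the other strand, where miR-34b-3p and miR-34c-3p matched at 17 of 22 bases. Against Mir34a, which has its own locus, Mir34c was lower in both libraries, with Mir34a 13.4-fold above it in library 1 (12.6 to 14.3) and 18.7-fold in library 2 (17.5 to 19.9).

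The 3 Mir449 genes lie within 1642 bases of chromosome 13 (113035983 to 113037624, plus strand), in an intron of Cdc20b, a gene expressed in multiciliated cells. Their order along the strand is Mir449c, Mir449b and Mir449a. Mir449a (ENSMUSG00000065575.1; 113037534 to 113037624) had 120 reads in library 1 and 118 reads in library 2, or 31.4 and 25.9 CPM. Its mean was 28.6 ± 3.85 CPM (SD, n = 2), rank 256, next to Mir206 at 29.5 ± 5.84 CPM and Mir1193 at 27.9 ± 10.6 CPM. Mir449b (ENSMUSG00000078027.1; 113037419 to 113037498), only 35 bases upstream of Mir449a, had no read in either library. Mir449c (ENSMUSG00000076146.1; 113035983 to 113036091) had none either.

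A count of 0 allows 3 counts of the total, which is 0.784 CPM in library 1 and 0.659 CPM in library 2. Taking 3 counts per library as the limit, Mir449a was at least 40-fold higher than each of Mir449b and Mir449c in library 1 and at least 39.3-fold higher in library 2. Lower levels of Mir449b and Mir449c than that were not detectable at this depth. Whether reads of Mir449b map to several places was not checked.

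**Figure D2:**
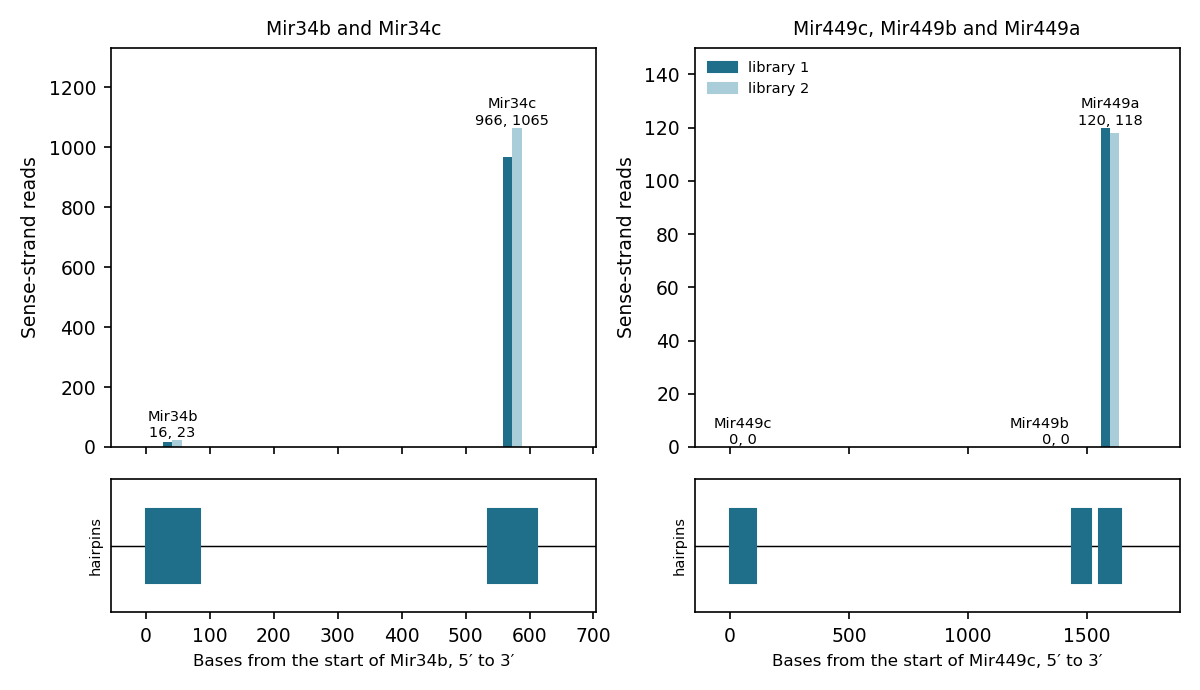
Sense-strand reads of the hairpins in the Mir34b and Mir34c cluster (left) and the Mir449 cluster (right), for library 1 (dark) and library 2 (light), above a map of the hairpins in bases from the start of the first one. In each cluster the hairpin farthest from the start, Mir34c or Mir449a, holds nearly all reads.

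The order of the 6 genes with reads was Mir34a, Mir204, Mir34c, Mir449a, Mir34b and Mir211. It was the same in both libraries, and for every pair of neighbours in it the lower library of the higher gene lay above the higher library of the next. The gap was narrowest between Mir34b, with at least 4.18 CPM, and Mir211, with at most 3.14 CPM. The Wilson intervals of this pair overlapped in library 1 (2.57 to 6.79 CPM for Mir34b, 1.79 to 5.48 CPM for Mir211) but not in library 2 (3.37 to 7.58 CPM and 0.745 to 3.17 CPM), so its order rests on library 2. With 2 values for each gene, an exact permutation test could not reach the 0.05 threshold, and none was made. The 5 detected members lay between rank 46 and rank 373 of 406, with 88.7% of detected genes below Mir34a, 67.5% below Mir204, 61.1% below Mir34c, 36.9% below Mir449a and 8.13% below Mir34b.

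**Figure D3:**
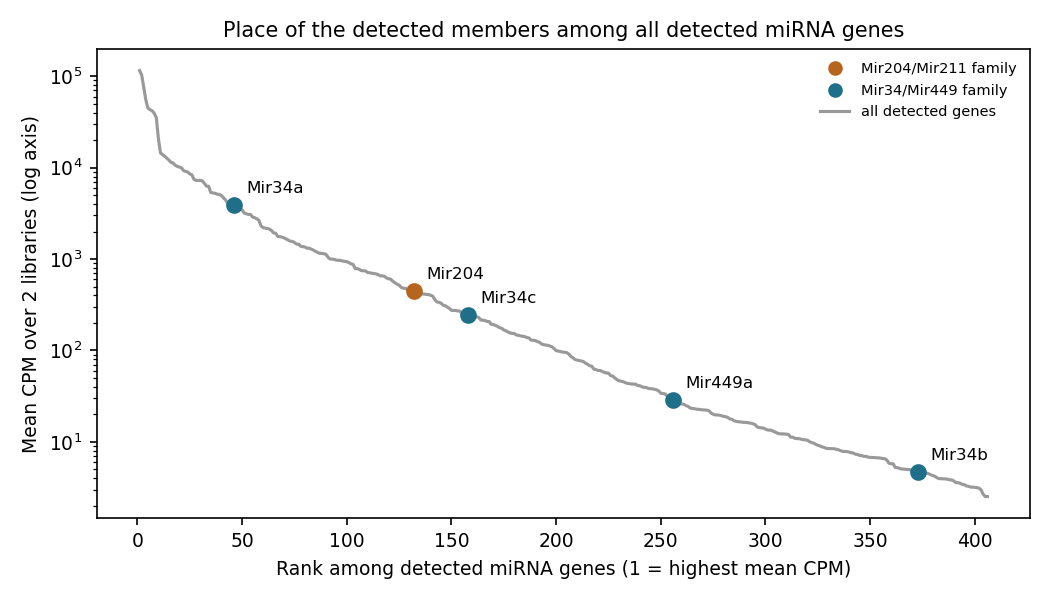
Mean CPM of all 406 detected miRNA genes (log axis) against their rank, with the 5 detected members of the Mir204/Mir211 and Mir34/Mir449 families marked. Mir34a stands at rank 46 and Mir34b at rank 373, with Mir204, Mir34c and Mir449a between them.

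Between the libraries, Mir34a was the 1 member past the test with the totals as scaling. Its level was 1.29-fold higher in library 2 (exact 95% interval 1.26 to 1.32), a log2 ratio of library 1 over library 2 of -0.37 with 1 CPM added. An exact binomial test, two-sided and Benjamini-Hochberg adjusted over all 508 genes with 10 or more reads in total, gave an adjusted p of 2.21e-112. Of the 6 members tested this was the 1 that passed at 0.05, against 48.4% of all genes tested (25.2% higher in library 1 and 23.2% higher in library 2). That test compares these libraries with counting error alone and passes small differences at high counts. Among tested genes with a mean of at least 1000 CPM, where Mir34a lies, 92.4% passed. In edgeR's exact test, with the common dispersion, Mir34a had an adjusted p of 1 (unadjusted p = 0.578), and 0.787% of the 508 genes passed. That dispersion comes from the same 2 libraries, 1 on each side, so this p only places Mir34a among the other genes and is no replicated test of its difference.

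Mir204 differed by 1.06-fold (log2 ratio of library 1 over library 2 -0.09, exact binomial test, adjusted p = 0.106), with an exact 95% interval of 0.998 to 1.14 for library 2 over library 1. Its call depended on the scaling: with TMM factors the adjusted p of the same exact test was 0.0495 and with DESeq2 size factors 0.0125, at log2 ratios of -0.11 and -0.13. Mir34c went the other way by 1.08-fold, library 1 over library 2 (0.988 to 1.18; log2 ratio 0.11, exact binomial test, adjusted p = 0.157). In their range of 100 to under 1000 CPM, 79.4% of the tested genes passed the binomial test.

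The less abundant members carried wide intervals. Mir449a gave 1.21-fold, library 1 over library 2 (exact 95% interval 0.931 to 1.57). Mir34b gave 0.828-fold (0.409 to 1.64) and Mir211 2.04-fold (0.740 to 6.11), neither past the exact binomial test. Below 100 CPM, 24.6% of the tested genes passed. With 1 CPM added, the median difference in either direction was 1.18-fold over the 6 members tested, beside 1.30-fold over all 508 genes tested. The folds of single members have nothing added.

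**Figure D4:**
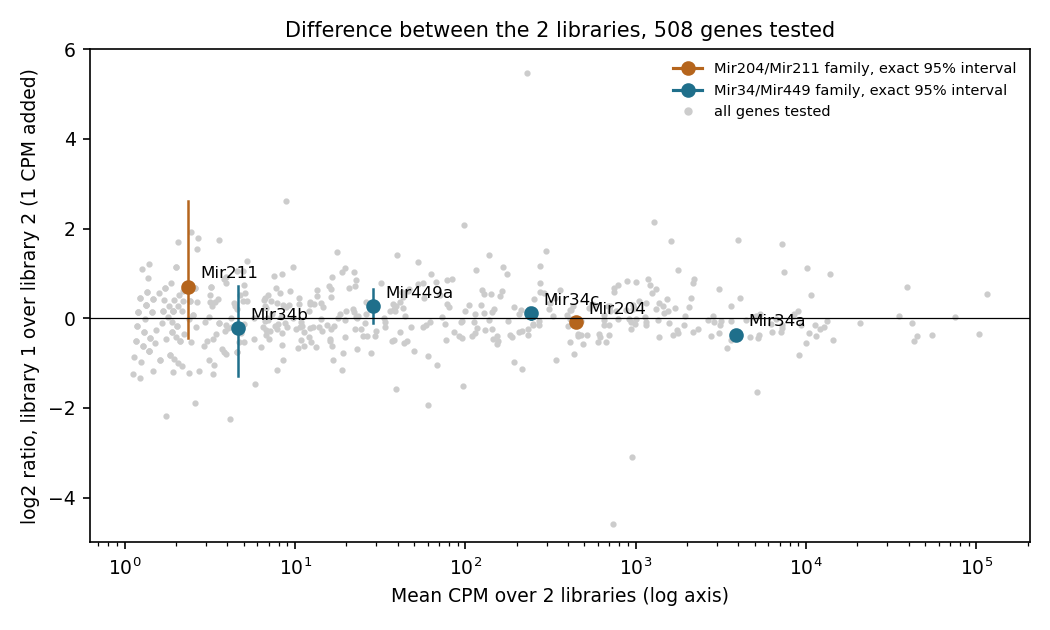
Log2 ratio of library 1 over library 2 (1 CPM added) against mean CPM (log axis) for the 508 genes tested (grey) and the 6 tested members (coloured, with exact 95% intervals computed with nothing added). Mir34a lies at -0.37, and the intervals of the other 5 members include 0.

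Within the Mir34/Mir449 family the values did not all run one way. Mir34a was higher in library 2, while Mir34c had 252 and 234 CPM and Mir449a 31.4 and 25.9 CPM in libraries 1 and 2, without passing the test. The share of Mir34a within the Mir34/Mir449 family was 92.2% in library 1 and 94.3% in library 2, and the family held 0.367% of library 1 (95% Wilson interval 0.361 to 0.373%) and 0.463% of library 2 (0.457 to 0.469%).

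Markers of other cells are given with the counts that passed the same exact binomial test. All tested neuron genes but Mir124a-1, both oligodendrocyte genes, Mir126a, Mir143 and Mir150 had means of at least 1000 CPM, where 92.4% of tested genes passed, so counts of calls among them say little about these cells. The vessel list (Mir126a, Mir143 and Mir145a) held 1.44% of library 1 and 1.86% of library 2, with 2 of 3 genes higher in library 2 and 1 in library 1. The red blood cell list (Mir451a, Mir144 and Mir486) held 0.0134% and 0.155%, again with 2 of 3 higher in library 2 and 1 in library 1. The neuron list (Mir132, Mir128-1, Mir137 and the 3 Mir124a genes) held 6.79% and 4.17%, with 3 of 4 tested genes higher in library 1. Nearly all of that share came from Mir132, Mir128-1 and Mir137. In libraries 1 and 2, Mir124a-1 had 10 and 18 reads, Mir124a-2 had 1 and 7, and Mir124a-3 had 6 and 1. Reads mapped to several places are not in these counts. The oligodendrocyte list (Mir338 and Mir219a-2) held 0.498% and 0.346%, with both genes higher in library 1. The microglia and leukocyte list (Mir150, Mir142 and Mir223) held 0.135% and 0.107%, with 2 of 3 higher in library 1. None of these defining genes was at 0 in either library, though Mir124a-2 and Mir124a-3 each had 1 read in 1 library. The part of these cells in the difference at Mir34a was not tested.

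Other miRNAs of related tissue or regulation were set beside the members. The 5 genes in introns of Htr2c, which encodes a serotonin receptor prominent in the choroid plexus, held 0.0126% of library 1 and 0.0143% of library 2. Of these, 4 were detected, led by Mir1298 at 91.5 ± 17.8 CPM (SD, n = 2), and Mir1912 had no read. By the exact binomial test Mir1264 was higher in library 1 and Mir1298 in library 2. The miR-200 genes of other epithelia (Mir200a, Mir200b, Mir200c, Mir141 and Mir429) held 0.0111% and 0.00817%. Their highest gene was Mir429 at 37.5 ± 6.11 CPM, so each of the 5 lay below the mean of Mir204 and of Mir34c. Against the less abundant members they did not: Mir429 and Mir200b had higher means than Mir449a (28.6 CPM). All but Mir141 had higher means than Mir34b (4.62 CPM) and Mir211 (2.34 CPM). Mir200b was the 1 of 5 that passed, higher in library 1. Of 7 other p53-induced miRNA genes in the tables, 5 were detected, led by Mir143 at 6265 ± 373 CPM, which like Mir145a is also on the vessel list. Of these 5, 2 were higher in library 1 and 2 in library 2. Over all levels 25.2% of tested genes were higher in library 1 and 23.2% in library 2, and the shares that passed within each level, given above, apply to these lists too.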

How the data were processed

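Short RNA from the left cerebral cortex of 2 mice was sequenced. The authors deposited 1 table of raw read counts per library, not normalized, with 3 count columns and 4 tally rows. Per the labels the build was mm10, and per the deposited description files the annotation was GENCODE M21. For the aligner, its version and the trimming, nothing is stated in these sources. The layout is that of STAR gene counts, in which a read mapped to several places goes to no gene. The reads come from a hybrid with CAST/EiJ, and mm10 is the C57BL/6J sequence, so reads that differ from it may have been lost.

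Tally rows stayed out of the library totals: unmapped reads were 19.6% and 18.9%, and uniquely mapped reads outside the sense strand of miRNA genes 5.03% and 4.94%. The sense-strand column was used. All 2202 identifiers matched GENCODE M21. CPM used the sense-strand total, and 1 CPM was added before taking log2. Genes with 10 or more reads in total entered an exact binomial test (two-sided, Benjamini-Hochberg threshold 0.05). It was tried on simulated counts with counting error alone, which does not show how it behaves with the further spread between real libraries. Intervals of ratios are exact (Clopper-Pearson) and those of shares Wilson, at 95%. edgeR 4.0.16 and DESeq2 1.42.0 (R 4.3.3) gave other scalings, and edgeR an exact test at the common dispersion of the 2 libraries. Other steps used Python 3.11.15, scipy 1.17.1 and pandas 2.3.3.

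The genes, lists and tests were chosen with earlier results of these data known. Named genes are the 8 members, the gene directly above and below each detected member by mean CPM, and list genes. Of the p53 list Mir605 was not analysed here. No paired test or comparison of conditions exists with 1 group.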

Additional observations from a re-analysis of the deposited data

Results flagged for a closer look

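Reads on the strand opposite to Mir34b exceeded the 3 counts that a count of 0 allows, in data outside the sense-strand counts. There were 4 such reads beside 16 sense reads in library 1 and 9 beside 23 in library 2, which is 20.0% (exact 95% interval 5.73 to 43.7%) and 28.1% (13.7 to 46.7%) of the reads on both strands. The other 7 members had none. No other miRNA gene is annotated opposite Mir34b, and the opposite strand belongs to an intron of Btg4. Across the 2138 miRNA genes without such an opposite miRNA gene, 175 antisense reads were counted in library 1 and 145 in library 2. Of 379 detected genes among them, 3 had more than 10% antisense reads in both libraries, and Mir34b had the highest pooled share (25.0%) after Mir5620 and Mir3083, genes named after their values were seen.

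Reads mapped to several places were 41.7% of library 1 and 41.1% of library 2, also outside the counts and above the limit of 3 counts. How many of them came from these 8 genes is not given by the tables.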

How the results depend on the processing

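The summed share of the 8 genes was 0.460%. It was 0.158% with all reads as the denominator and, in an alternative chosen after seeing the data, 0.0722% without Mir34a. With all reads as the denominator it was 0.0153% for the Mir204/Mir211 family and 0.143% for the Mir34/Mir449 family. The Mir204/Mir211 share was 0.0481% in the column that ignores strand and 0.0389% over all uniquely mapped reads. Of the members, 1 differed between the libraries by the exact binomial test, against 2 with TMM factors, 2 with DESeq2 size factors, 0 by edgeR's exact test (0 at an unadjusted p under 0.05) and 0 without Mir34a. edgeR's dispersion came from the same 2 libraries, so its counts are no replicated test. Over all genes 246 differed by the binomial test and 4 by edgeR (25 unadjusted). The log2 ratio of Mir34c over Mir34b was 5.72 with nothing added. Leaving out 1 library gave 0.411 to 0.509% for the 8 genes, 0.0433 to 0.0459% and 0.367 to 0.463% for the families, 5 to 6 detected members, and log2 ratios of 6.70 to 7.50 (Mir204 over Mir211), -4.22 to -3.74 (Mir34c over Mir34a) and 5.28 to 5.61 (Mir34c over Mir34b). None of 36 alternative ratios of single members between the libraries reversed. Those that changed only the added CPM or the test could not reverse by construction. The column that ignores strand changed the counts of Mir34b alone among the tested members, so the absence of reversals says little. In the column that ignores strand the mean of Mir34b was 6.61 CPM, against 4.62 CPM in the sense-strand column. The mean of Mir204 was 478 against 444 CPM and that of Mir34c 262 against 243 CPM. The counts of Mir204 and Mir34c were the same in both columns, so their means moved with the library totals. Values under about 10 reads, such as Mir211, are limited by depth. No paired analysis was possible because the libraries form 1 group.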
